A study of Mus musculus with 18 samples.

Results

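Matrix metalloproteinases (Mmp genes), ADAMTS proteases (Adamts), ADAMTS-like proteins (Adamtsl) and the tissue inhibitors of metalloproteinases (Timp) were followed in whole mouse ovaries. A gene was included when its symbol belonged to 1 of these families, Adamts1 and Mmp12 excepted, and when it had at least 10 expected counts in 6 or more libraries. Of 49 matching genes, 30 met that minimum, out of 55416 genes in the tables. They comprised 10 of 22 Mmp genes, 13 of 18 Adamts genes, 3 of 5 Adamtsl genes and all 4 Timp genes. The 23 Mmp and Adamts genes are called proteases here and were kept apart from the 4 inhibitors. The 3 Adamtsl genes were kept apart from both, because ADAMTS-like proteins lack the protease domain.

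Both protease families are zinc enzymes that are made as inactive precursors and cut proteins of the extracellular matrix, the scaffold of collagens, proteoglycans and fibrillin fibres between cells. TIMP proteins block the active sites of these enzymes. In the ovary the matrix is remodelled when a follicle grows, when its wall opens at ovulation and when the emptied follicle becomes a corpus luteum, the gland that makes progesterone.

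The series held 18 ovary libraries from wildtype female Balb/c mice, in 3 groups of 6 mice. YC mice were 8 weeks old and were dosed by mouth with distilled water. OC mice were 40 weeks old and were dosed with the same water, and OC+SM mice, of the same age as OC, were dosed with the herbal medicine Samul-tang (SM) at 2.5 g/kg. Dosing was repeated 5 times weekly over 4 weeks. All mice, the controls included, were then primed with PMSG, a gonadotropin from mare serum, at 5 IU, which makes follicles grow. After 48 hours they received human chorionic gonadotropin (hCG) at 5 IU, which triggers ovulation, and the ovaries were collected 16 hours later. Every group therefore holds hormone-stimulated ovaries, in what the labels' protocol terms a post-ovulatory state. OC and OC+SM mice were kept separated within shared cages, and it is not known here which mice shared a cage.

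Library totals, in units of 1000000 expected counts, ran from 9.05 to 14.15 in YC, from 11.61 to 13.43 in OC and from 14.2 to 20.35 in OC+SM, so that the OC+SM libraries were all deeper than the OC libraries. Levels are given as CPM, counts per 1000000 after scaling by the trimmed mean of M-values (TMM). The kit reads 3' ends, about 1 tag for each transcript, so CPM was not divided by gene length. Genes of corpus luteum and steroid synthesis, which mark the labelled tissue, summed to between 8522 and 15990 CPM in every library. The library YC 3 had the lowest total, 9.05. It also had the highest summed theca markers of the YC group, 489 CPM against 131 to 222 in the other 5, and the lowest smooth muscle markers, 871 against 1250 to 1480 CPM. Values without YC 3 are given beside the results that it moved. OC+SM 6 stood apart among the OC+SM libraries, with endothelial markers at 168 CPM (261 to 283 in the other 5), surface epithelium markers at 97.8 CPM (52.7 to 62.8), adipocyte markers at 52.7 CPM (16.9 to 26.4) and macrophage markers at 252 CPM (148 to 181).

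Levels of the 30 genes spanned from 0.634 CPM for Adamts16 to 402 CPM for Timp1, as means over the 18 libraries. Timp1, Timp2 and Timp3 were the 3 highest members, followed by Mmp11 at 120 CPM, Mmp14 at 117 CPM and Mmp2 at 115 CPM. Among the 13 Adamts genes included here, Adamts1 being left out, the highest were Adamts10 at 57.6 CPM, Adamts2 at 50.1 CPM and Adamts9 at 31.3 CPM. Mmp2, Mmp11 and Mmp14 together made up 54.0% ± 2.80 of the summed protease CPM in YC (SD, n = 6), 58.6% ± 1.98 in OC and 60.9% ± 1.87 in OC+SM. The spread within groups was smallest for Adamts10, with a coefficient of variation of 7.21%, and largest for Timp4 at 69.7%. It was also wide for the thinly counted Adamts16 (55.4%), Adamtsl2 (46.7%) and Adamts17 (41.8%).

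The 19 matching genes under the count minimum included all 4 collagenases on the list, Mmp1a, Mmp1b, Mmp8 and Mmp13, of which Mmp1a and Mmp1b had no count in any library. The others were Mmp3, Mmp7, Mmp10, Mmp20, Mmp21, Mmp25, Mmp27, Mmp28, Adamts3, Adamts8, Adamts13, Adamts18, Adamts20, Adamtsl3 and Adamtsl5. Mmp25 stood just outside, with 10 or more counts in 5 libraries and between 0 and 1.14 CPM. Adamts16 stood just inside, in 6 libraries, 2 of each group, and between 0.172 and 1.23 CPM. Adamts17 reached the minimum in 7 libraries, of which 4 were YC, 2 were OC and 1 was OC+SM. Adamtsl2 reached it in 11, of which 5 were YC, 1 was OC and 5 were OC+SM.

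**Figure D1:**
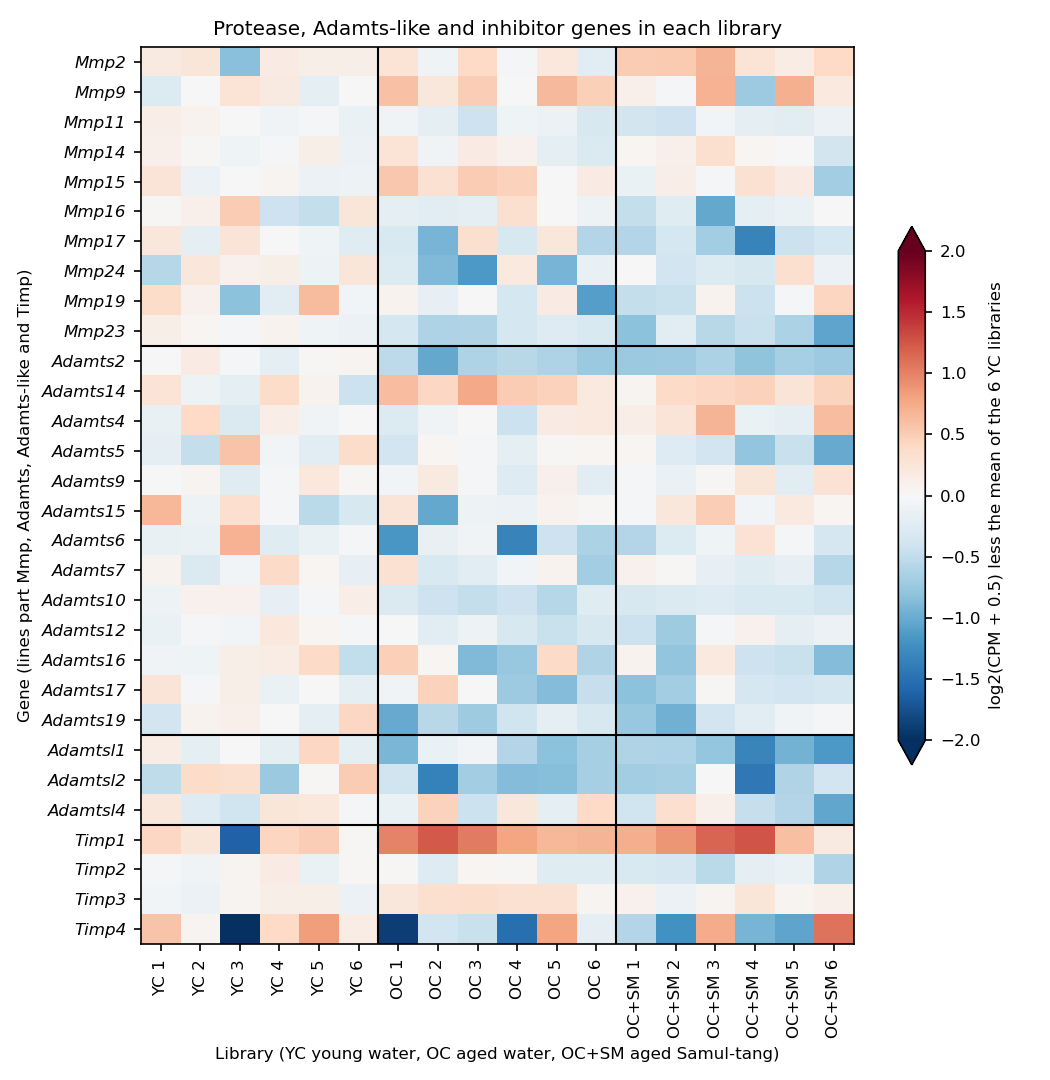
Heat map of the 30 genes (vertical axis, by family) in the 18 libraries (horizontal axis, by group). Colour is log2(CPM + 0.5) less the mean of the 6 YC libraries; the Adamts2 line is blue in all 12 aged libraries, the Timp1 line is red in them, and YC 3 is blue for Mmp2, Timp1 and Timp4.

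The comparison of OC with YC asked what differed with age. Of the 30 genes, 5 fell and 1 rose at an adjusted p under 0.05 (edgeR quasi-likelihood test, Benjamini-Hochberg adjustment over all 16959 genes tested). Adamts2, Adamts10, Adamts19, Mmp23 and Adamtsl2 were lower in OC, with log2 fold changes from -1.28 to -0.40, and Timp3 was higher. In the same comparison 11.3% of all genes tested were called, 6.03% as lower and 5.25% as higher. At an unadjusted p under 0.05 the count was 12 of 30, beside 24.0% of all genes. The 30 log2 fold changes had a median of -0.18, beside 0.0054 over all genes, and 22 of them were negative. DESeq2 called the same 6 genes, beside 9.91% of the genes it gave an adjusted p. On the authors' TPM values, limma called 559 genes higher and 1105 lower with age over all genes, where edgeR called 890 and 1022. In whole ovaries, fewer cells of a type and less RNA per cell cannot be told apart.

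Adamts2 cuts the N-terminal propeptide from fibrillar procollagens, a step that lets collagen fibrils form. Its level was 59.0 to 75.5 CPM in YC (median 67.6), 32.7 to 46.6 CPM in OC (median 43.6) and 38.5 to 43.4 CPM in OC+SM (median 40.6). Every library of an aged mouse lay below every library of a young mouse. The log2 fold change of OC against YC was -0.68 ± 0.08 (SE; adjusted p = 2.29e-06, edgeR), which is 0.623 times the YC level. Adamts14, a second procollagen N-propeptidase, was near 1 CPM and was not called: its log2 fold change was 0.67 ± 0.27 (adjusted p = 0.121, edgeR).

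Adamts10 encodes a protease that binds fibrillin fibres. It ran from 60.2 to 73.8 CPM in YC (median 68.2), from 45.4 to 56.7 CPM in OC (median 50.5) and from 51.1 to 56.3 CPM in OC+SM (median 54.5). The OC and YC values did not overlap, and OC was lower by a log2 fold change of -0.40 ± 0.07 (adjusted p = 0.000202, edgeR). Mmp23, which starts as a membrane protein and is shed by proteolysis, ran from 19.2 to 22.7 CPM in YC (median 21.1), from 13.5 to 17.5 CPM in OC (median 16.4) and from 9.84 to 18.1 CPM in OC+SM (median 13.7). These YC and OC values were separate too, with a log2 fold change of -0.41 ± 0.12 (adjusted p = 0.0192, edgeR). Without the library OC 3 the adjusted p of Mmp23 was 0.0526.

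The calls of Adamts19 and Adamtsl2 were less stable. Adamts19, a protease whose substrates are little known, lay between 13.9 and 24.6 CPM in YC (median 18.8), between 8.87 and 15.9 CPM in OC (median 13.1) and between 9.17 and 17.96 CPM in OC+SM (median 14.9). Its groups overlapped, and its log2 fold change with age was -0.54 ± 0.17 (adjusted p = 0.0431, edgeR). The call was lost when any of 10 libraries was left out (OC 1, 2, 3 or 4, YC 2, 3, 4 or 6, OC+SM 3 or 4). Adamtsl2, which binds fibrillin and a latent TGF-beta binding protein, lay between 0.658 and 2.25 CPM in YC (median 1.70), between 0.257 and 0.966 CPM in OC (median 0.626) and between 0.216 and 1.43 CPM in OC+SM (median 0.745). Its log2 fold change of -1.28 ± 0.40 (adjusted p = 0.0407, edgeR) rested on few counts, 3 to 31 in a library. Leaving out any of 9 libraries (OC 2, 3, 4, 5 or 6, YC 2, 3, 5 or 6) ended the call, with an adjusted p of at most 0.108 over all alternatives. With YC 3 left out 5 of the 30 genes were called, and these did not include Adamts19 or Adamtsl2 but did include Timp1. Over all genes that fit called 805 higher and 940 lower of 17111.

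**Figure D2:**
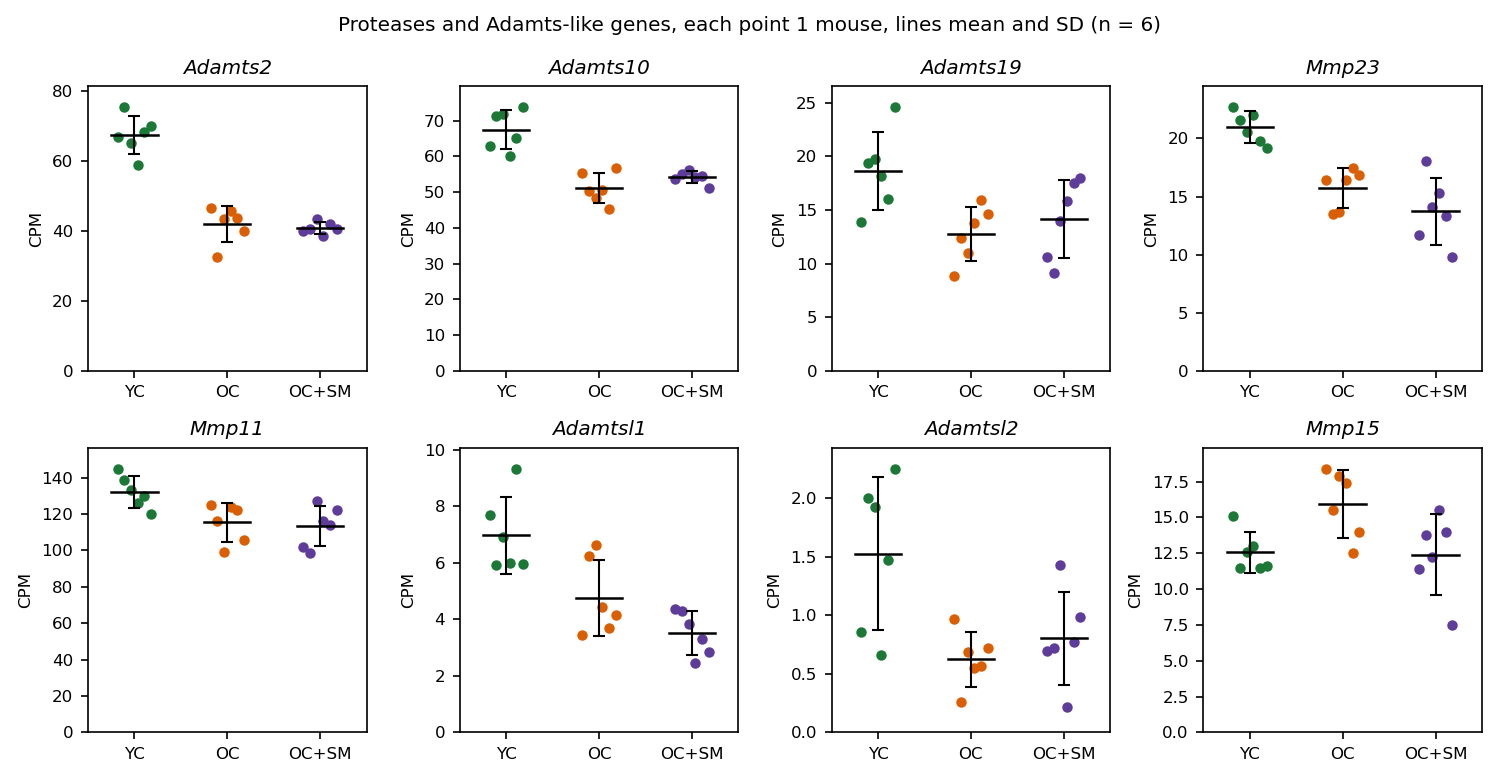
CPM (vertical axis, from 0) of 6 proteases and 2 Adamts-like genes in YC, OC and OC+SM (horizontal axis), 1 point for each mouse, with the mean (wide line) and SD (bars). Both aged groups of Adamts2 (32.7 to 46.6 CPM) lie under the YC group (59.0 to 75.5 CPM), while the Adamts19 groups overlap.

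Most proteases were not called with age. The gelatinases Mmp2 and Mmp9, which cut denatured and basement membrane collagen, had log2 fold changes of 0.07 ± 0.15 and 0.50 ± 0.27. Mmp14, a membrane protease that activates the Mmp2 precursor, was at 116 ± 7.69 CPM in YC and 116 ± 17.4 CPM in OC (SD, n = 6). None of the 5 membrane-type Mmp genes was called by edgeR with age, and 1 of them, Mmp15, had an unadjusted p under 0.05. Mmp15 lay between 11.5 and 15.1 CPM in YC (median 12.1), between 12.5 and 18.4 CPM in OC (median 16.4) and between 7.50 and 15.5 CPM in OC+SM (median 13.03). Its log2 fold change with age was 0.35 ± 0.14 (adjusted p = 0.114, edgeR), and it was called when only the 12 libraries of YC and OC were fitted (adjusted p = 0.0398) or when OC+SM 6 was left out (adjusted p = 0.0415). DESeq2 called none of the 5 with age either.

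The 4 proteoglycan-cleaving members, Adamts4, Adamts5, Adamts9 and Adamts15, cut versican and aggrecan, and none was called with age by edgeR, DESeq2 or limma, nor reached an unadjusted p under 0.05. Their log2 fold changes lay between -0.17 and -0.05. The Adamts5 value, -0.11, was 0.015 without YC 3. Of the 7 remaining Adamts genes (Adamts6, Adamts7, Adamts10, Adamts12, Adamts16, Adamts17 and Adamts19) 2 were called, and the values of all 7 were negative, from -0.69 to -0.15. Adamts6 had the value farthest from 0 of these, -0.69 ± 0.27 (adjusted p = 0.103, edgeR). YC 3 held 5.75 CPM of it and the other YC libraries 2.78 to 3.26 CPM, and without YC 3 the value was -0.50. Adamts17, also among the 7, met the count minimum in 4 YC, 2 OC and 1 OC+SM libraries, so that minimum favoured a negative value for it.

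Among the inhibitors, Timp3 rose with age. TIMP3 is bound to the matrix and also blocks ADAMTS proteases. It lay between 143 and 168 CPM in YC (median 154), between 160 and 198 CPM in OC (median 191) and between 142 and 183 CPM in OC+SM (median 163). In OC, 5 of 6 libraries were above the highest YC library, and the log2 fold change was 0.26 ± 0.07 (adjusted p = 0.0122, edgeR). On the authors' TPM values the call was lost (limma, adjusted p of 0.0865 and 0.0877 with pseudocounts of 1 and 0.1).

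The gene Timp3 lies inside Syn3, on the opposite strand, and shares 1733 exon bases with it in GENCODE M21. Syn3 encodes a synaptic vesicle protein and was counted at 67.0 ± 8.31 CPM in YC, 77.0 ± 9.85 CPM in OC and 89.7 ± 15.9 CPM in OC+SM (SD, n = 6). No source used here states the strand setting of the counting, so reads of this pair cannot be told apart. With both genes added, a choice made after seeing the data, the sum was 209 to 243 CPM in YC, 242 to 283 CPM in OC and 237 to 268 CPM in OC+SM. The sum had a log2 fold change of 0.24 ± 0.05 for OC against YC (adjusted p = 0.00452, edgeR), of -0.06 ± 0.05 for OC+SM against OC (adjusted p = 0.655) and of 0.18 ± 0.05 for OC+SM against YC (adjusted p = 0.0172). Timp3 and Syn3 counted apart therefore gave another picture of the treated group than their sum did: Timp3 alone was not called in OC+SM against YC (0.07 ± 0.07, adjusted p = 0.503), and Syn3 alone was (0.42 ± 0.11, adjusted p = 0.00831). Other opposite-strand exon overlaps included those of Mmp11 with Chchd10 (155 bases), Adamts7 with Tbc1d2b (122 bases), Adamts9 with A730049H05Rik (1381 bases) and Gm15737 (424 bases), Mmp19 with Tmem198b (789 bases) and Gm47093 (212 bases), Mmp24 with BC029722 (637 bases) and Timp4 with Syn2 (90 bases).

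Timp1, a secreted inhibitor that binds most soluble MMP proteins, was the most abundant member. It lay between 81.8 and 355 CPM in YC (median 317), between 401 and 588 CPM in OC (median 469) and between 284 and 601 CPM in OC+SM (median 442). All OC libraries were above all YC libraries, yet the YC value of 81.8 CPM came from YC 3 alone and the other 5 were at 256 to 355 CPM. The log2 fold change with age was 0.77 ± 0.28 (adjusted p = 0.0884, edgeR), and without YC 3 it was 0.58 (adjusted p = 0.0402). Timp2, which together with Mmp14 activates the Mmp2 precursor, was not called with age (log2 fold change -0.11 ± 0.08, adjusted p = 0.470), nor was Timp4 (-0.65 ± 0.61, adjusted p = 0.578). Timp4 was at 0.533 CPM in YC 3 and at 3.77 to 6.80 CPM in the other YC libraries. Its value with age ran from -1.13 to -0.24 over the alternatives. Altogether 4 of the 30 genes, Adamts2, Adamts10, Mmp23 and Timp1, had OC and YC values that did not overlap, beside 7.38% of all genes.

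**Figure D3:**
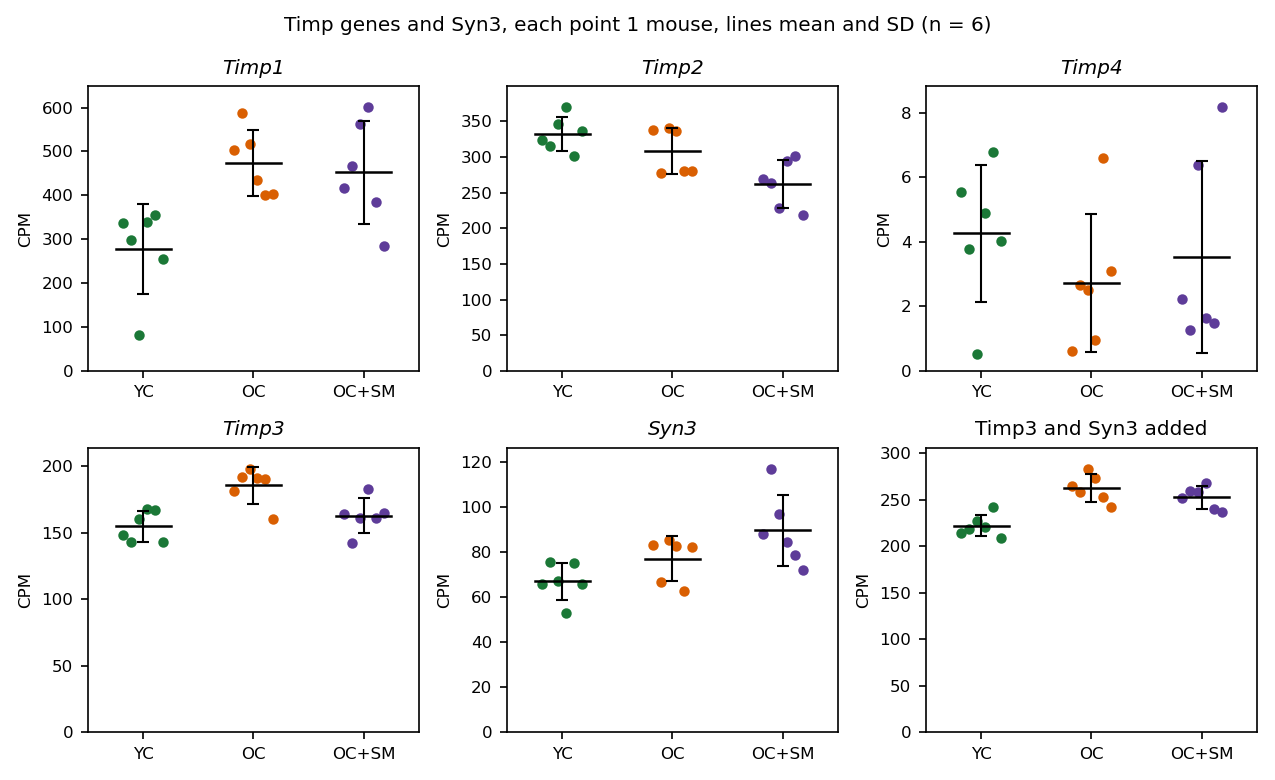
CPM (vertical axis, from 0) of the 4 Timp genes, of Syn3 and of Timp3 and Syn3 added together, in YC, OC and OC+SM (horizontal axis), 1 point for each mouse, with the mean (wide line) and SD (bars). The YC point of Timp1 at 81.8 CPM is YC 3, and the OC points of the summed pair lie between 242 and 283 CPM.

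Promoters are shown for 4 genes that were called in a comparison with YC: Adamts2 and Mmp23 among the proteases, which were lower in both aged groups, and Timp3 and Timp2 among the inhibitors. RefSeq promoters on GRCm38.p6, another build than the GRCm39 of the counts, were at hand for 16 of the 30 genes. Each line below is the 250 bases before a start site, 5' to 3' on the strand of the gene. They are chr11:50601835-50602084 (+) for Adamts2, chr4:155653385-155653634 (-) for Mmp23, which has a second start in the table, chr11:118355412-118355661 (-) for Timp2 and chr10:86300162-86300411 (+) for Timp3. Capitals mark matches on either strand to 2 motifs, the ETS core GGAA (TTCC on the other strand) and the RUNX core TGTGGT.
Adamts2: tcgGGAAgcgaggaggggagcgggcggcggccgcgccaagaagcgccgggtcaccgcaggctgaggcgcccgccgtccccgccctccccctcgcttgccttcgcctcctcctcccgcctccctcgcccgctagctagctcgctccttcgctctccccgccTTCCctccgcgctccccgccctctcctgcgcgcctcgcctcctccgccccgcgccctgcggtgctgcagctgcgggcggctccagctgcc
Mmp23: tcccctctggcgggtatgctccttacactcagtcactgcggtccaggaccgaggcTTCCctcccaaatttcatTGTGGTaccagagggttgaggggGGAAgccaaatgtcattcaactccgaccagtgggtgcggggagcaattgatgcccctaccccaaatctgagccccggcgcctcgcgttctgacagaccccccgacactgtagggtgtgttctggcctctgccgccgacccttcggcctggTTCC
Timp2: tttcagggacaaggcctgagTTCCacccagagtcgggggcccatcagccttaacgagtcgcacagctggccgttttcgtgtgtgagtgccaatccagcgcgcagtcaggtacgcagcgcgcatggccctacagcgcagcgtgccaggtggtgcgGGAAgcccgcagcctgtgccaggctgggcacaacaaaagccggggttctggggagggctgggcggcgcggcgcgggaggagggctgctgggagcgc
Timp3: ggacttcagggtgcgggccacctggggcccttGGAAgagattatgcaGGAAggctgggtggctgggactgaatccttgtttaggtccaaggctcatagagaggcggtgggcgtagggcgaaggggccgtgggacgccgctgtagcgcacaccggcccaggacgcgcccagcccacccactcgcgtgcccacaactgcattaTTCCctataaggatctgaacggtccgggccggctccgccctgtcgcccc

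These stretches differed in base composition, with 78.0% G and C in Adamts2, 61.2% in Mmp23, 68.0% in Timp2 and 65.6% in Timp3. The RUNX core was found in 2 of 16 genes, Mmp23 and Mmp14, beside 14.2% of 27025 promoters, and the ETS core in 14 of 16, beside 93.4%. A gene was counted when any of its starts had a match, while the shares count each promoter. The second Mmp23 start held no RUNX match. Another motif, the AP-1 site TGANTCA, was in 0 of the 16, beside 6.87% of all promoters. A match is a run of letters and not a measured site, and the lack of one says only that those letters are not in this window.

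**Figure D4:**
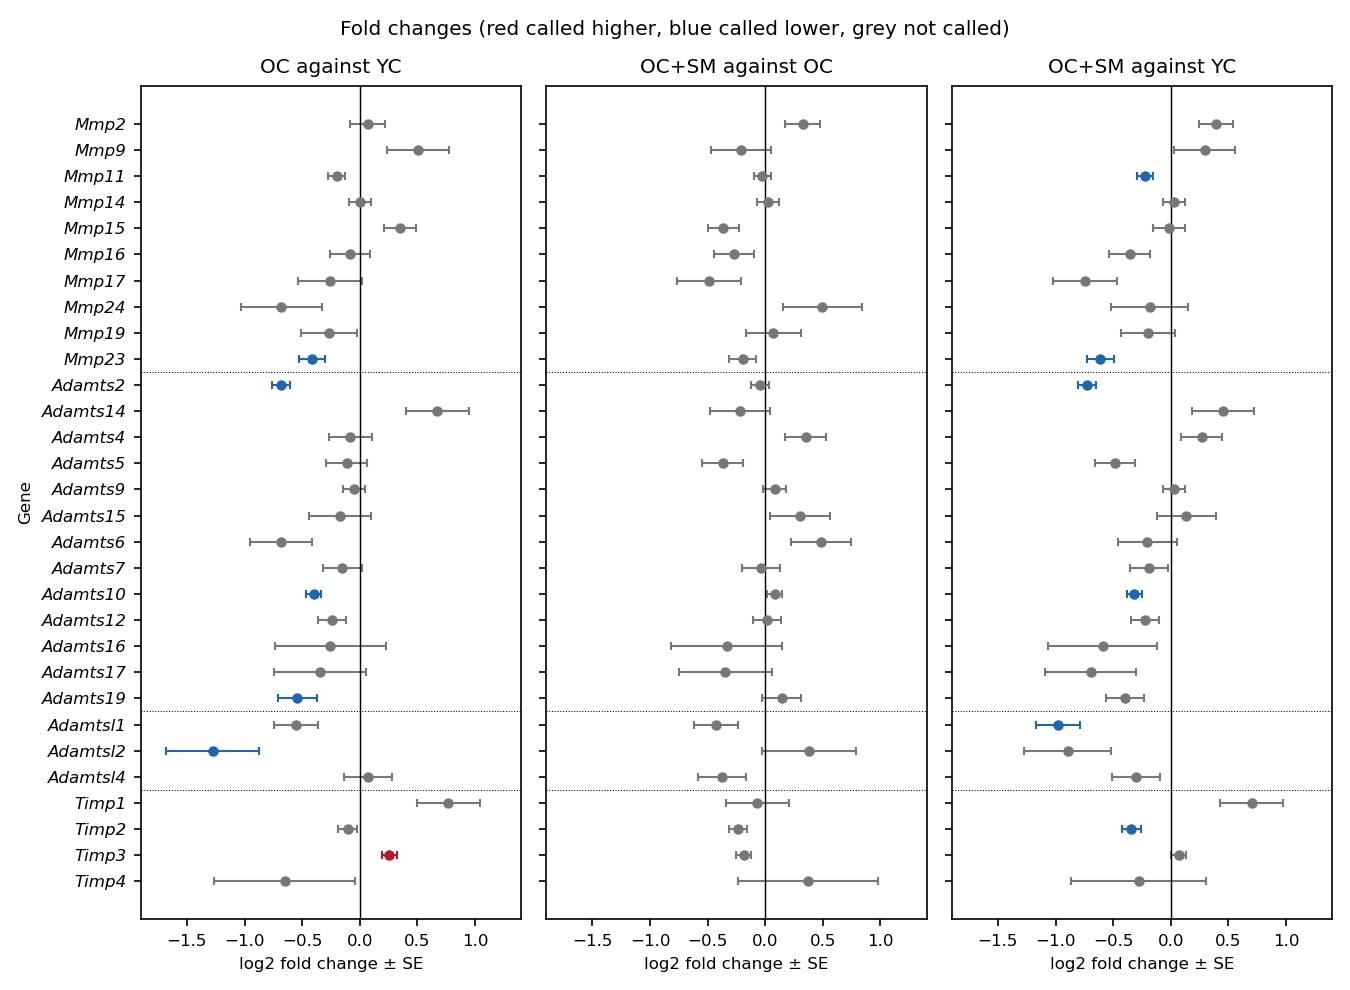
Log2 fold change ± SE (horizontal axis) of the 30 genes (vertical axis, by family) for OC against YC, OC+SM against OC and OC+SM against YC, with genes called higher in red, called lower in blue and not called in grey. No gene is coloured in the middle panel, and in the right panel all 6 coloured genes are to the left of 0.

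The comparison of OC+SM with OC asked what differed with Samul-tang in aged mice. By edgeR 0 of the 30 genes were called, beside 1.04% of all genes tested (0.548% higher and 0.489% lower), and limma on the TPM values also called 0. DESeq2 called 0 of the 23 members that it gave an adjusted p, beside 5.05% of all such genes. At an unadjusted p under 0.05 the count was 6 of 30, beside 16.9% of all genes. No gene had OC+SM values apart from the OC values, beside 1.53% of all genes. The median log2 fold change was -0.04, beside 0.0065 over all genes. All OC+SM libraries were deeper than all OC libraries, and with counts thinned to the smallest library the number called was also 0.

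The 6 genes with an unadjusted p under 0.05 comprised 2 inhibitors, 3 proteases and 1 Adamts-like gene. Timp2 ran from 278 to 341 CPM in OC (median 308) and from 219 to 302 CPM in OC+SM (median 266), with a log2 fold change of -0.24 ± 0.08 (adjusted p = 0.131, edgeR). Timp3 had a value of -0.19 ± 0.07 (adjusted p = 0.141), and Timp3 with Syn3 added had the value of -0.06 given above. Both Timp genes overlapped between OC and OC+SM. Mmp15 had -0.36 ± 0.14 (adjusted p = 0.163) and Adamtsl1 -0.43 ± 0.19 (adjusted p = 0.259). Adamts5 had -0.37 ± 0.18 (adjusted p = 0.292). Mmp2 was the one gene of the 6 with a positive value, 0.32 ± 0.15 (adjusted p = 0.284): it ran from 86.2 to 131 CPM in OC (median 106) and from 110 to 159 CPM in OC+SM (median 137), again with overlap.

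For the 5 proteases and Adamts-like genes that fell with age, the Samul-tang comparison gave log2 fold changes of -0.04 ± 0.08 for Adamts2, 0.08 ± 0.07 for Adamts10, 0.14 ± 0.17 for Adamts19, -0.20 ± 0.12 for Mmp23 and 0.38 ± 0.41 for Adamtsl2. None was called by edgeR, DESeq2 called none of the other 4 and gave Adamtsl2 no adjusted p, and none had an unadjusted p under 0.05. The age and Samul-tang comparisons share the 6 OC libraries, so a library that is low in OC moves both in opposite directions.

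In the comparison of OC+SM with YC, which asked how treated aged ovaries differed from young ones, 6 of 30 genes fell and none rose. These were Adamts2, Adamts10, Mmp23, Mmp11, Adamtsl1 and Timp2. The share of all genes called was 22.4%, with 10.9% lower and 11.5% higher, so that 6 of 30 was near the background. Without OC+SM 6, which was the lowest OC+SM library for Timp1, Timp2, Mmp14, Mmp15 and Mmp23, 9 genes were called, with Adamts19, Mmp17 and Timp1 added. Over all genes that fit called 1934 higher and 1986 lower of 17169. At an unadjusted p under 0.05 there were 12 of 30, beside 33.9% of all genes. The median log2 fold change of the 30 was -0.22, beside 0.0018 over all genes. This comparison shares the YC libraries with the age comparison and the OC+SM libraries with the Samul-tang comparison.

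Adamts2 was at 0.605 times the YC level in OC+SM, a log2 fold change of -0.72 ± 0.08 (adjusted p = 8.53e-07, edgeR). Adamts10 had -0.32 ± 0.07 (adjusted p = 0.00123) and Mmp23 -0.61 ± 0.11 (adjusted p = 0.000496). All 3 had OC+SM values wholly under the YC values, like their OC values. Adamtsl1, a secreted matrix protein also named punctin, lay between 5.92 and 9.33 CPM in YC (median 6.46), between 3.43 and 6.63 CPM in OC (median 4.28) and between 2.44 and 4.38 CPM in OC+SM (median 3.57). Its OC values overlapped both other groups, and its OC+SM values lay wholly under YC (log2 fold change -0.98 ± 0.19, adjusted p = 0.000714, edgeR). OC against YC gave -0.55 ± 0.19 for Adamtsl1 (adjusted p = 0.0628).

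Mmp11, or stromelysin-3, is activated inside the cell by furin. It lay between 120 and 145 CPM in YC (median 132), between 99.4 and 125 CPM in OC (median 119) and between 98.7 and 127 CPM in OC+SM (median 115). Its log2 fold change in OC+SM against YC was -0.22 ± 0.07 (adjusted p = 0.0266, edgeR), and the call was lost without YC 1, YC 2, OC+SM 1 or OC+SM 2, with an adjusted p of at most 0.0676 over all alternatives. Its values for OC against YC (-0.20 ± 0.07, adjusted p = 0.0758) and OC+SM against OC (-0.02 ± 0.07) were not called. Its overlapping neighbour Chchd10 was at 415 CPM in YC, 488 CPM in OC and 556 CPM in OC+SM.

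Timp2 lay between 301 and 370 CPM in YC (median 330), and its log2 fold change in OC+SM against YC was -0.34 ± 0.08 (adjusted p = 0.00394, edgeR). The highest OC+SM library, at 302 CPM, was above the lowest YC library, so the groups overlapped narrowly. Timp1 was at 0.70 ± 0.27 (adjusted p = 0.0808, edgeR), and it was called without YC 3 (0.51, adjusted p = 0.0453) and without OC+SM 6 (0.80, adjusted p = 0.0488). In all, 5 of the 30 genes did not overlap between OC+SM and YC (Adamts2, Adamts10, Mmp23, Adamtsl1 and Mmp17), beside 9.5% of all genes. Mmp17, a lipid-anchored membrane protease of 1.94 to 2.98 CPM in YC and 0.647 to 1.78 CPM in OC+SM, was separate between these groups without being called (-0.75 ± 0.28, adjusted p = 0.0533). Adamts5 (-0.48 ± 0.18, adjusted p = 0.0523) and Mmp2 (0.39 ± 0.15, adjusted p = 0.0709) were also close to the threshold. DESeq2 called Mmp17, Adamts5 and Mmp2 as well, 9 genes in all, beside 19.5% of the genes it gave an adjusted p. Over all genes, edgeR called 1954 higher and 1841 lower in this comparison, and limma on the TPM values 1365 and 2010.

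The other 14 genes had no unadjusted p under 0.05 in any comparison: Mmp9, Mmp14, Mmp16, Mmp19, Mmp24, Adamts4, Adamts7, Adamts9, Adamts12, Adamts15, Adamts16, Adamts17, Adamtsl4 and Timp4. Their log2 fold changes ran from -0.68 to 0.50 with age, from -0.37 to 0.50 with Samul-tang and from -0.69 to 0.29 in OC+SM against YC. The precision differed much among them. Mmp14 and Adamts9 had an SE of 0.10 in each comparison, while Timp4 had SEs of 0.59 to 0.61 and Adamts16 of 0.47 to 0.48.

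Summed over genes, the 13 Adamts proteases were at 236 ± 12.0 CPM in YC (SD, n = 6; range 223 to 252), 182 ± 4.43 CPM in OC (177 to 188) and 185 ± 6.83 CPM in OC+SM (176 to 195). Both aged groups lay wholly under YC in this sum, which leaves out Adamts1 and so is not the total of all Adamts transcripts. The 10 Mmp genes summed to 412 ± 32.0 CPM in YC (361 to 449), 396 ± 37.9 CPM in OC (338 to 446) and 416 ± 31.8 CPM in OC+SM (391 to 477), and the 3 groups overlapped. The 3 Adamtsl genes summed to 20.7 ± 2.72, 18.2 ± 3.42 and 14.2 ± 4.24 CPM in YC, OC and OC+SM.

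The 4 inhibitors summed to 769 ± 102 CPM in YC (589 to 883), 971 ± 92.7 CPM in OC (844 to 1060) and 881 ± 134 CPM in OC+SM (676 to 1080). Timp1 made up 35.1% ± 10.7 of that sum in YC, 48.6% ± 3.72 in OC and 50.7% ± 6.37 in OC+SM. The ratio of protease CPM to inhibitor CPM was 0.854 ± 0.105 in YC (0.715 to 1.02), 0.598 ± 0.0507 in OC (0.516 to 0.664) and 0.693 ± 0.0973 in OC+SM (0.551 to 0.856). OC and YC did not overlap in this ratio. OC+SM overlapped OC, and it overlapped YC through OC+SM 6 alone, at 0.856, since its other 5 libraries lay between 0.551 and 0.702. YC 3, with its low Timp1, gave the highest ratio of all libraries. Without YC 3 the YC values were 806 ± 57.1 CPM for the inhibitors, 39.3% ± 3.09 for the Timp1 share and 0.819 ± 0.0707 for the ratio (SD, n = 5; 0.715 to 0.893). These sums are descriptions of transcript levels, dominated by a few abundant genes, and were not tested. Adamts1 and Mmp12 are in none of them.

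**Figure D5:**
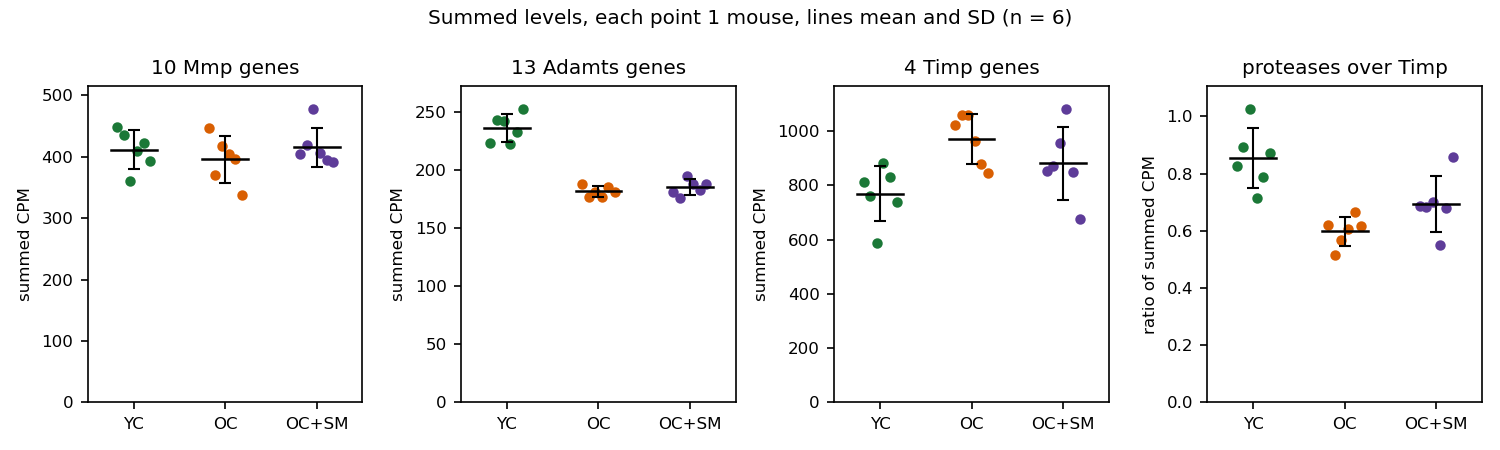
Summed CPM of the 10 Mmp, 13 Adamts and 4 Timp genes and the ratio of summed protease CPM to summed Timp CPM (vertical axes, from 0) in YC, OC and OC+SM (horizontal axis), 1 point for each mouse, with the mean (wide line) and SD (bars). The Adamts sums of the aged groups (176 to 195 CPM) lie under those of YC (223 to 252 CPM), and the Mmp sums overlap.

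Of 30 genes that activate, bind or otherwise restrain these proteases, 26 were tested, and 3 rose and 3 fell with age, beside 5.25% higher and 6.03% lower over all genes. Furin, which cuts the precursors of several MMP and ADAMTS proteins, rose by a log2 fold change of 0.34 ± 0.09, Plau, the urokinase that makes plasmin, by 0.58 ± 0.16 and Lrp1, an endocytic receptor for many proteases, by 0.25 ± 0.08. Those that fell were Pcsk6, a convertase related to furin (-1.09 ± 0.15), Serpine2, an inhibitor of serine proteases (-0.87 ± 0.11), and Thbs1, thrombospondin-1 (-0.75 ± 0.14). In OC+SM against OC, edgeR called 0 of the 26, with 6 at an unadjusted p under 0.05; limma called 0 and DESeq2 called 4, beside 5.05% of all genes, with Plau, Ctsb and Ctsl higher and Furin lower. In OC+SM against YC, 7 rose (Plau, Plat, Plaur, Cd44, Ctsb, Adam8 and Pcolce) and 3 fell (Pcsk6, Serpine2 and Thbs1), beside 11.5% higher and 10.9% lower over all genes. Plau, at 38.5 ± 9.21 CPM in YC, 57.9 ± 7.52 CPM in OC and 81.2 ± 15.5 CPM in OC+SM (SD, n = 6), had the value farthest above 0 of these, 1.07 ± 0.16 (adjusted p = 0.000166, edgeR). Plg, the plasmin precursor, had no count in any library.

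Of 30 matrix proteins that such proteases cut or bind, 27 were tested, and 7 fell and none rose with age, beside 6.03% lower and 5.25% higher over all genes. They were the collagen chains Col1a2 (-0.38 ± 0.08) and Col5a1 (-0.34 ± 0.10), the laminin chains Lama2 (-0.76 ± 0.13) and Lamb1 (-0.49 ± 0.06), the fibrillin Fbn1 (-0.45 ± 0.08) and the proteoglycans Bcan (-1.33 ± 0.19) and Dcn (-0.40 ± 0.09). Col1a2, a chain of the procollagen that ADAMTS2 trims, was at 918 ± 88.0 CPM in YC, 707 ± 61.2 CPM in OC and 663 ± 80.1 CPM in OC+SM (SD, n = 6). In OC+SM against OC, edgeR called 0 of the 27, with 4 at an unadjusted p under 0.05; limma called 0 and DESeq2 called 2, Dcn higher and Ltbp1 lower, beside 5.05% of all genes. In OC+SM against YC, 8 fell (Bcan, Fn1, Col1a2, Fbn1, Fbn2, Lama2, Lamb1 and Nid1) and 1 rose, Acan, beside 10.9% and 11.5% of all genes. Acan, the cartilage proteoglycan aggrecan, was at 1.11 ± 0.505 CPM in YC and 3.56 ± 3.39 CPM in OC+SM.

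Marker genes of ovarian cell types moved with age beside the proteases and inhibitors. Over all genes 5.25% were called higher and 6.03% lower with age. The 8 oocyte markers all fell, from a sum of 114 to 174 CPM in YC to 34.5 to 60.5 CPM in OC and 33.7 to 68.4 CPM in OC+SM. Smooth muscle and pericyte markers fell in 4 of 6, Myh11, Acta2, Cnn1 and Tagln (871 to 1482 CPM in YC, 772 to 876 CPM in OC, 640 to 767 CPM in OC+SM). The uncalled Rgs5 (0.15 ± 0.21) and Cspg4 (0.11 ± 0.15) of that list had positive values. Theca markers fell in 4 of 5 (131 to 489, 48.9 to 91.8 and 50.2 to 119 CPM), granulosa markers in 4 of 7 (1039 to 1499, 708 to 1125 and 515 to 1192 CPM) and fibroblast markers in 2 of 6 (1213 to 1738, 1102 to 1404 and 1251 to 1655 CPM). Without YC 3 the YC sums were 1245 to 1482 CPM for smooth muscle, 131 to 222 CPM for theca and 1592 to 1738 CPM for fibroblast markers, each above all OC libraries. Luteal markers rose in 2 of 6, Cyp11a1 and Hsd3b1 (8522 to 11530, 12940 to 15010 and 13410 to 15990 CPM). Endothelial markers rose in 2 of 6, Kdr and Emcn. Among the uncalled ones Vwf had a negative value (-0.42 ± 0.30), and Pecam1, Cdh5 and Tek had positive ones. Macrophage markers rose in 2 of 6, Gpnmb and C1qa. Of those not called, Adgre1 (-0.28 ± 0.22) and Csf1r (-0.13 ± 0.10) had negative values, and Cd68 and C1qb positive ones. B and plasma cell markers rose in 2 of 3, Jchain and Igkc (1.75 to 7.10, 7.45 to 14.3 and 5.03 to 20.45 CPM), and T and NK cell markers in 1 of 2, Trbc2 (1.02 to 2.81, 2.98 to 6.08 and 2.80 to 5.75 CPM). Surface epithelium markers fell in 2 of 6, Krt8 and Msln (48.9 to 60.1, 47.6 to 61.8 and 52.7 to 97.8 CPM). The uncalled Upk3b (0.28 ± 0.13), Krt7 (0.31 ± 0.18) and Krt19 (0.31 ± 0.19) had positive values, and Krt18 was at 0.0004. None of the cumulus, neutrophil, mast cell, oviduct, adipocyte and erythrocyte markers tested was called with age by edgeR. In OC+SM against OC none of these markers was called by edgeR, beside 1.04% of all genes. At an unadjusted p under 0.05 there were 4 fibroblast, 2 oocyte, 2 smooth muscle, 1 granulosa, 1 luteal, 1 endothelial and 1 surface epithelium marker. The share of all genes at that level was 16.9%. DESeq2 called 1 fibroblast and 1 luteal marker, beside 5.05% of the genes it gave an adjusted p. Of all markers, the adipocyte gene Lep alone had no count in any library. The part of these cell types in the protease and inhibitor values was not tested.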

How the data were processed

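Total RNA of 18 ovaries was sequenced with a QuantSeq 3' mRNA kit, per the labels' protocols. Tools listed in the submitters' processing notes are STAR 2.7.9a, RSEM 1.3.3 and FastQC 1.9, with GRCm39 as the genome build; no source used here states the annotation or the strand setting. The authors deposited an RSEM table for each library, which holds expected counts and TPM values by gene, per the file headers. TPM values divide by gene length, which 3' tags do not call for, and served only as an alternative. RSEM divides reads among genes, and 87.4% of expected counts, zeros included, were within 0.005 of a whole number. All were rounded. Symbols came from GENCODE M21 by Ensembl identifier, for 52083 of 55416 genes.

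Genes passing the edgeR count filter, 16959 with all 30 members, were scaled by TMM (factors 0.937 to 1.07) and tested in 1 edgeR 4.0.16 quasi-likelihood fit of the 18 libraries with 3 group means (R 4.3.3, two-sided, robust). Benjamini-Hochberg adjustment ran over all 16959 genes, and calls needed an adjusted p below 0.05. A fold change is a log2 value with its SE. Alternatives were RLE factors, DESeq2 1.42.0, no filter, a filter of 1 CPM in 6 libraries, limma 3.58.1 on log2 TPM with pseudocounts of 1 and 0.1, only the 12 libraries compared, a replicate block, thinning to the smallest library, each library left out, and YC 3 with OC+SM 6 left out. The edgeR script was tested on simulated data. Among 153 pairs of libraries none was a duplicate (chi-square per degree of freedom of at least 4.1).

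All members above the count minimum were eligible to be named, and other genes of the pathway where called. Members and gene lists were chosen with earlier results of these data known. Protein sequences were not used here. The range of depths means that 1 CPM stood for 9.05 to 20.35 counts.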

Additional observations from a re-analysis of the deposited data

Results flagged for a closer look

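Of 105 sets of 6 libraries checked (the 30 genes and the summed levels in each group), 5 held a library whose gap to its nearest neighbour was large for the range of its group; chance gives about 1 in 20 such sets. In YC 3, the shallowest library, Mmp2 was at 55.7 CPM while the other YC libraries were at 108 to 118 CPM. Timp1 in YC 3 was at 81.8 CPM, and the others at 256 to 355 CPM. Adamts6 in YC 3 was at 5.75 CPM, above the 2.78 to 3.26 CPM of the others. In OC+SM 3, the deepest library, the summed proteases were at 673 CPM (578 to 595 CPM in the others) and the summed Mmp genes at 477 CPM (391 to 419 CPM in the others).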

How the results depend on the processing

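The number of genes called was 4 to 9 with age (6 as reported), 0 in every setting with Samul-tang, and 5 to 9 in OC+SM against YC (6 as reported) over 28 alternatives; with 1 library left out these ranges were 4 to 7, 0 to 0 and 5 to 9. Adamts2 and Adamts10 were called with age in every alternative, and Adamts2, Adamts10, Mmp23, Adamtsl1 and Timp2 in OC+SM against YC. With only the 12 libraries compared, 9 genes were called with age, Adamtsl1, Mmp11 and Mmp15 among them. Over all genes that fit called 1103 higher and 1204 lower of 16265, beside 890 and 1022 of 16959 as reported. The number called over all genes thus also differed between settings. Same-numbered libraries did not deviate together (correlations of -0.118 to 0.0736). This cannot settle whether the numbers pair the mice, because a pairing need not show in transcript levels. With the replicate block 5 genes were called with age (Adamtsl2 lost), 0 with Samul-tang and 6 in OC+SM against YC (Mmp11 lost, Adamts19 gained). Of all 16959 genes, the block fit called 825 higher and 931 lower with age. It called 66 higher and 73 lower with Samul-tang, and 1784 higher and 1751 lower in OC+SM against YC. Of 1340 values for 16 genes under the alternatives, 1252 kept direction and side of the threshold, 36 lost a call, 34 gained one and 18 changed sign. The 1340 also include Timp3 and Syn3 added, which is not one of the 28 alternatives and was set against Timp3 in each comparison. That sum accounts for 1 of the gained calls, in OC+SM against YC. The 18 were all of values not called, and the cause was not tested. With age, Mmp2 ranged from -0.057 to 0.126 and Adamts5 from -0.204 to 0.015 with 1 library left out, both changing sign without YC 3; without YC 3 and OC+SM 6 they were -0.054 and 0.018. Timp1 with Samul-tang ranged from -0.165 to 0.035 with 1 library left out and was 0.036 without YC 3 and OC+SM 6. In OC+SM against YC, Mmp15 ranged from -0.085 to 0.087 with 1 library left out, and was 0.081 after thinning and 0.092 without YC 3 and OC+SM 6; Adamts6 was 0.026 without YC 3 and OC+SM 6. Mmp11 with Samul-tang was 0.021 on both TPM scales and ranged from -0.063 to 0.0099 with 1 library left out. Depth limited the thinly counted genes: Adamts16, Adamts17 and Adamtsl2 had values in 24 to 27 of the 28 alternatives, being left out by a filter or given no adjusted p by DESeq2.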

Other observations

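Adamts13, the protease that trims von Willebrand factor, was below the count minimum and was singled out after its values were seen. It was at 9.03 CPM in OC 3 and at 9.84 CPM in OC+SM 5, where it had 166 counts. In the other 16 libraries it was between 0 and 0.701 CPM. Its neighbour Cacfd1 was between 19.0 and 29.1 CPM in all 18 libraries, at 26.2 CPM in OC 3 and 24.1 CPM in OC+SM 5.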
